A study of Mus musculus with 11 samples.

Results

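The cadherins described here are Cdh2, Cdh3, Cdh5, Cdh6, Cdh11 and Cdh13, 6 of the 23835 named genes on these arrays. They were taken by name, through the Entrez Gene identifier of each row, and not by their values. All 6 had a row of their own. RNA came from mouse mammary tumour cells of the genotype MMTV-rtTA;TetO-Wnt1. In such cells the MMTV promoter, active chiefly in mammary epithelium, drives a regulator that turns on the Wnt1 transgene while doxycycline is given. The cells were marked with H2B-eGFP, a fluorescent histone, grown at the mammary site of female nu/nu mice, which lack a thymus but keep macrophages and other host cells, and isolated again as GFP-positive cells. All groups therefore share the transgenes, the marker and the host strain. There were 4 arrays of primary tumour cells, from mice on doxycycline and labelled untreated, 3 of residual lesion cells, labelled Wnt1 inhibition and taken 28 days after doxycycline withdrawal, and 4 of recurrent tumour cells, labelled Wnt1 inhibition with no time given. No age of the mice is stated in the labels. The series title names the cells Wnt1-Prim1, which may be a single tumour line shared by all arrays. Nothing in the labels ties the arrays to separate mice, so the p-values reflect only how these samples vary, and that variation may be technical.

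Cadherins are calcium-dependent adhesion proteins that bind cadherins on neighbouring cells. Classical cadherins cross the membrane, and their cytoplasmic tails bind beta-catenin or plakoglobin and p120-catenin, which link the junction to actin through alpha-catenin. Type I members include E-cadherin (Cdh1) of epithelia, N-cadherin (Cdh2) of nerve, muscle and mesenchyme, and P-cadherin (Cdh3) of basal epithelium. VE-cadherin (Cdh5) of endothelium, K-cadherin (Cdh6), known from the kidney and nervous system, and OB-cadherin (Cdh11) of osteoblasts and fibroblasts are grouped with type II. T-cadherin (Cdh13) is held by a lipid anchor, has no cytoplasmic tail and is a receptor for adiponectin, so it is not a classical cadherin in the strict sense. In the mammary gland Cdh3 is a marker of the myoepithelial layer, and beta-catenin, the partner of the classical members, is also the effector of Wnt signalling.

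Levels are log2 signals, on which a step of 1 is a 2-fold difference. A background range came from 1066 olfactory receptor genes, whose 95th percentile lay between 3.96 and 4.09 on the primary and recurrent arrays and between 4.34 and 4.38 on the residual arrays. Signals at or below that percentile could not be told from background. The median over all genes was 4.35 to 4.45 on the 11 arrays. Krt8 and Krt18, the keratins of simple epithelium, read well above background in every group, at 10.08 ± 0.07 and 10.42 ± 0.19 in primary cells (SD, n = 4). Epcam, a defining epithelial adhesion marker, read in the background range on every primary and recurrent array and on 2 of 3 residual arrays, and reached 6.29 on the other one. Calls below are genes with a limma p under 0.05 after Benjamini-Hochberg adjustment over all 23835 genes.

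Cdh2 was lower in recurrent tumour cells than at both earlier stages, and it was the only one of the 6 cadherins called in any comparison. It read 8.40, 7.88, 8.42 and 8.40 on the primary arrays, 8.58, 8.30 and 8.51 on the residual arrays and 6.99, 7.42, 7.47 and 6.38 on the recurrent arrays. Every recurrent array lay below every primary and residual array, a pattern that 0.902% of all genes showed. Recurrent cells had 2.32-fold less Cdh2 than primary cells, a log2 fold change of -1.21 (SE 0.23, limma adjusted p = 0.0231). Against residual cells the level was 2.63-fold lower, a log2 fold change of -1.40 (SE 0.25, limma adjusted p = 0.0071). These comparisons share the recurrent arrays. The means were 8.46 ± 0.14 in residual cells (SD, n = 3), 8.28 ± 0.26 in primary cells (SD, n = 4) and 7.06 ± 0.51 in recurrent cells (SD, n = 4). The residual and primary arrays overlapped, and their difference of 0.18 had a 95% interval from -0.36 to 0.72 (limma adjusted p = 0.712). In these bulk samples fewer cells with Cdh2 and less Cdh2 RNA per cell cannot be told apart.

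**Figure D1:**
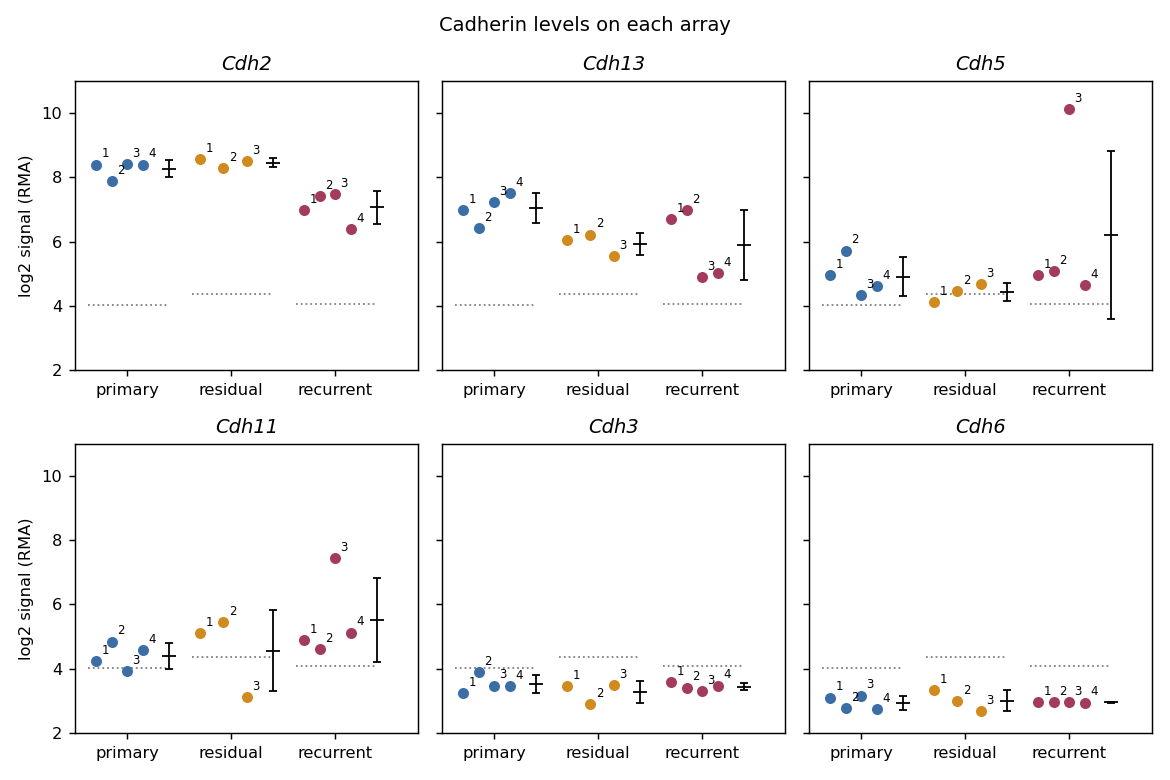
Log2 signal (vertical axis) of the 6 cadherins on each array, grouped by stage. Points are arrays with their replicate number, bars the mean and SD of the group (n = 4, 3 and 4), and dotted lines the group's median 95th percentile of olfactory receptor genes. The recurrent Cdh2 points (6.38 to 7.47) lie below all others, Cdh5 reaches 10.13 on recurrent array 3, and Cdh3 and Cdh6 stay under the dotted lines.

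The fall against primary cells was close to the threshold. It was not called in a fit on the primary and recurrent arrays alone (adjusted p = 0.0522), nor without primary 1 (0.0762), primary 3 (0.0727), primary 4 (0.0748) or recurrent 1 (0.0521). The call against residual cells was kept in every alternative run, with adjusted p from 0.00451 to 0.0396. Of all genes, 1.80% were called in recurrent against primary cells, 0.818% higher and 0.986% lower. In recurrent against residual cells 5.78% were called, 3.58% higher and 2.19% lower. Among the 6 cadherins 1 was called lower in each of these comparisons and 0 higher. In residual against primary cells, where 12.4% of genes were called (4.81% higher, 7.61% lower), 0 of the 6 were called by limma, and 1 of them, Cdh13, had an unadjusted p under 0.05.

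Cdh13 was lower in residual than in primary cells without passing the test, and its recurrent arrays fell into a high and a low pair. It read 6.98, 6.43, 7.23 and 7.52 on the primary arrays, 6.04, 6.22 and 5.55 on the residual arrays, and 6.71, 6.98, 4.89 and 5.03 on the recurrent arrays. The residual arrays all lay below the primary arrays, as did those of 13.7% of all genes. Recurrent 1 and 2 read within the primary range, and recurrent 3 and 4 below every residual array. The log2 difference was -1.11 for residual against primary cells (SE 0.49, limma adjusted p = 0.178) and -1.14 for recurrent against primary cells (SE 0.45, limma adjusted p = 0.277). A fit on the primary and residual arrays alone gave the former an adjusted p of 0.0286. Between recurrent and residual cells the means were 5.90 ± 1.10 (SD, n = 4) and 5.93 ± 0.35 (SD, n = 3), and the 95% interval of the difference ran from -1.10 to 1.04.

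Met, the receptor of hepatocyte growth factor, divided the same recurrent arrays. It read 9.57 and 9.63 on recurrent 1 and 2, where Cdh13 was 6.71 and 6.98, and 12.44 and 12.46 on recurrent 3 and 4, where Cdh13 was 4.89 and 5.03. On the residual arrays, where Cdh13 was also below its primary range, Met read 7.41 to 8.17, below its primary range of 8.81 to 9.31. Met was chosen after its values were known, and no test was made.

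Cdh5, the adhesion molecule of endothelial junctions, was high on a single array. It read 4.97, 5.72, 4.33 and 4.61 on the primary arrays and 4.13, 4.45 and 4.69 on the residual arrays. On recurrent 1, 2 and 4 it read 4.97, 5.09 and 4.66, and on recurrent 3 it read 10.13. Recurrent 3 thus lay 5.22 above the mean of the other recurrent arrays, a 37.2-fold difference, and the other 10 arrays all lay between 4.13 and 5.72. Its group means were 6.21 ± 2.62 in recurrent (SD, n = 4), 4.91 ± 0.60 in primary (SD, n = 4) and 4.42 ± 0.28 in residual cells (SD, n = 3). No comparison was called, with log2 differences of 1.30 for recurrent against primary (limma adjusted p = 0.636) and 1.79 for recurrent against residual cells (limma adjusted p = 0.396). Without recurrent 3 these became 0.00 (adjusted p = 0.999) and 0.49 (adjusted p = 0.477). On residual 1 the level was inside the background range.

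Endothelial markers did not share the Cdh5 signal of recurrent 3. Of 24 endothelial markers, 17 were at or below the background percentile on that array and 17 were lower there than the mean of the other recurrent arrays. Only 3 of the 24 read higher there than on each other recurrent array, and the largest excess over the mean of those arrays was 0.68. The mean of the 24 was 3.95 on recurrent 3, against 4.21, 4.35 and 3.96 on recurrent 1, 2 and 4, 3.91 to 4.06 in the primary group and 3.75 to 4.15 in the residual group. Kdr, Tek, Cldn5 and Vwf, known like Cdh5 from endothelium, were in the background range on all 11 arrays. Of the 24, 13 were in that range on every recurrent array and 6 were above it on every one. Those 6 included Plvap, Egfl7 and Robo4, at 5.45, 4.83 and 4.52 on recurrent 3. Pecam1 was at 3.78, in the background range, on recurrent 3. On recurrent 1, 2 and 4 it was above that range, at 4.33, 5.28 and 4.33. The brightest of the 24 by mean were Cd34, Flt1 and Lyve1, none of them limited to endothelium. Flt1, a VEGF receptor, read 5.06 on recurrent 3 and 6.74 to 7.97 on the other recurrent arrays. As a list, 2 of 24 were called higher in residual than primary cells (Erg and Sox18, at log2 changes of 1.19 and 1.32), 0 in recurrent against primary cells and 1, Flt1, higher in recurrent than residual cells. All 3 calls were lost without residual 2 (adjusted p = 0.0694, 0.0589 and 0.0564), and without recurrent 3 that of Erg was lost and Flt1 was called lower in residual than primary cells. The medians of the 24 were 0.04, 0.15 and 0.13.

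Cdh11, a cadherin of mesenchymal cells, was also highest on recurrent 3. It read 4.24, 4.84, 3.93 and 4.57 on the primary arrays, 5.10, 5.46 and 3.11 on the residual arrays, and 4.90, 4.61, 7.43 and 5.12 on the recurrent arrays. Recurrent 3 lay 2.55 above the mean of the others in its group, a 5.87-fold difference, and residual 3 and primary 3 lay inside the background range. The group means were 5.51 ± 1.29 in recurrent (SD, n = 4), 4.56 ± 1.26 in residual (SD, n = 3) and 4.40 ± 0.39 in primary cells (SD, n = 4), and all groups overlapped. No comparison was called. The log2 difference between recurrent and primary cells was 1.12 (95% interval -0.24 to 2.48, limma adjusted p = 0.485) and 0.48 without recurrent 3 (adjusted p = 0.745). Between residual and primary cells it was 0.16, with an interval from -1.31 to 1.63.

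**Figure D2:**
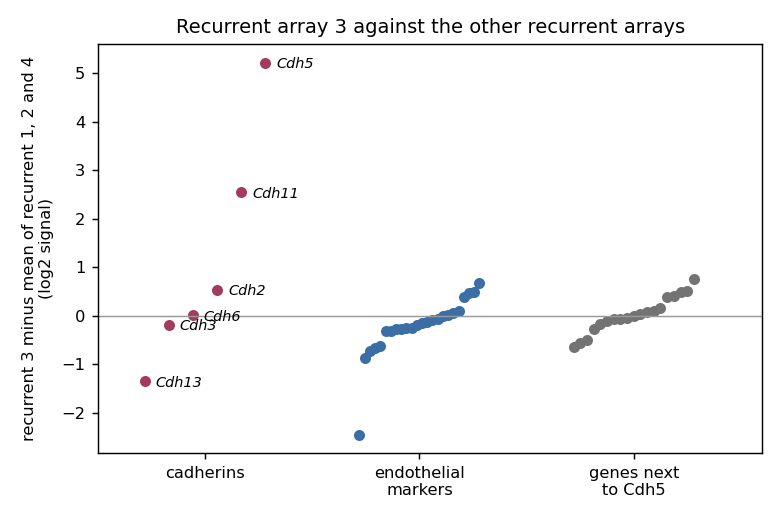
Recurrent array 3 minus the mean of recurrent arrays 1, 2 and 4 (vertical axis, log2 signal) for the 6 cadherins, 24 endothelial markers and the 19 other measured genes nearest to Cdh5 in genome order. Each point is a gene, sorted by value within its set. Cdh5 stands at 5.22 and Cdh11 at 2.55, while the highest endothelial marker is at 0.68 and the highest neighbour at 0.76.

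Cdh11 is the measured protein-coding gene next to Cdh5 in the gene order of assembly GRCm38.p6, and their neighbours were looked at after their values were seen. Of the 10 nearest measured protein-coding genes on each side of Cdh5, the 19 other than Cdh11 differed between recurrent 3 and the mean of the other recurrent arrays by -0.65 to 0.76. None of these 19 came near the 5.22 of Cdh5 or the 2.55 of Cdh11.

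Cdh3, the P-cadherin of the myoepithelial layer, and Cdh6 read in the background range on all 11 arrays. Cdh3 lay between 2.89 and 3.90 and Cdh6 between 2.68 and 3.33. Their means were 3.52 ± 0.27 and 2.94 ± 0.22 in primary (SD, n = 4), 3.28 ± 0.33 and 3.00 ± 0.33 in residual (SD, n = 3) and 3.44 ± 0.12 and 2.96 ± 0.01 in recurrent cells (SD, n = 4). The small SD of Cdh6 in recurrent cells came from 3 arrays that hold the identical value of 2.96. Differences of either gene are differences between signals in the background range and are not read as changes of expression. The basal cadherin of the set was thus not measurable here, although Krt14, a basal keratin, read 7.63 ± 0.46 in primary (SD, n = 4) and 10.36 ± 0.30 in residual cells (SD, n = 3). Krt5 was in the background range on all primary and residual arrays, and above it on 3 of 4 recurrent arrays. Trp63, the p63 factor of basal cells, was in that range on all residual arrays. On all 4 primary arrays Trp63 was above it, at 4.08 to 4.38, as it was on 1 of 4 recurrent arrays.

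The other type I and II cadherins gave no called gene. Of 13 measured, 0 were called in any of the 3 comparisons (limma), and 10 were in the background range on every array of each group. Cdh1, the epithelial cadherin, read 6.48 ± 0.17 in primary (SD, n = 4), 7.27 ± 0.73 in residual (SD, n = 3) and 5.99 ± 1.13 in recurrent cells (SD, n = 4). On the recurrent arrays it read 6.41, 7.36, 5.34 and 4.84, lowest on the arrays where Cdh13 was lowest. Its difference between recurrent and residual cells was -1.28 (limma adjusted p = 0.188), beside the -1.40 of Cdh2. Cdh15, the muscle cadherin, went from 4.47 ± 0.15 in primary to 5.43 ± 0.81 in residual cells (adjusted p = 0.0642). Without residual 2, Cdh15 was called higher in residual than primary and lower in recurrent than residual cells (limma adjusted p = 0.00707 and 0.0075). The median log2 change of the 13 was 0.07 for residual minus primary, -0.04 for recurrent minus primary and -0.03 for recurrent minus residual cells, and later medians keep this order. Over all genes the medians were 0.03, -0.01 and -0.03. Of 9 desmosomal cadherins, which anchor keratin filaments, 1 was called: Dsg1a was higher in residual than primary cells, by 0.99 (limma adjusted p = 0.00327). In that comparison 4.81% of all genes were called higher. The medians of the 9 were 0.23, 0.03 and -0.26.

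Among 13 catenins and actin linkers, the cytoplasmic partners of classical cadherins, 1 rose and 1 fell in residual against primary cells, 0 were called in recurrent against primary cells and 1 fell in recurrent against residual cells. Of all genes, 4.81% were called higher and 7.61% lower in residual against primary cells, and 2.19% lower in recurrent against residual cells. Jup encodes plakoglobin, which can take the place of beta-catenin at cadherin junctions and is also part of desmosomes. It read 8.96 to 9.10 on the primary arrays, 10.35 to 10.84 on the residual arrays and 8.67 to 9.75 on the recurrent arrays. It rose by 1.62 in residual cells and fell by 1.42 in recurrent against residual cells (limma adjusted p = 0.00132 and 0.00581). Pkp4, a relative of p120-catenin, fell from 7.73 ± 0.36 in primary to 6.41 ± 0.53 in residual cells (adjusted p = 0.00713). Ctnnb1, beta-catenin, differed by -0.19, -0.33 and -0.14 in the 3 comparisons, and 0 of these passed (limma adjusted p = 0.497, 0.33 and 0.678). Where Cdh2 was low the catenins Ctnnb1, Ctnna1 and Ctnnd1 read 9.43 ± 0.17, 9.23 ± 0.18 and 8.08 ± 0.34 (SD, n = 4). Of these, 0 were called against either other group. Ctnnb1 read 9.28 to 9.59 on the recurrent, 9.27 to 9.74 on the residual and 9.61 to 9.86 on the primary arrays. The share of all genes with every recurrent array below every primary array was not counted, so no fall is read from these ranges. Ctnnd1, p120-catenin, read 8.73 ± 0.10 in residual cells (SD, n = 3), a difference of 0.57 from primary cells, and recurrent cells differed from residual cells by -0.66 (limma adjusted p = 0.075 and 0.0682). Both of these were called when the arrays were quantile-normalized again (0.0314 and 0.0427) or scaled to one median and interquartile range (0.0331 and 0.0309). The medians of the 13 were 0.02, -0.09 and -0.12.

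Nectins, immunoglobulin-type adhesion molecules that help to place cadherins at junctions, were lower in recurrent cells in part. Nectin3 fell by 0.56 against primary and by 0.61 against residual cells (limma adjusted p = 0.0482 and 0.0233), with recurrent arrays at 6.42 to 6.85 and all others at 7.05 to 7.38. Nectin1 fell by 0.94 against residual cells (adjusted p = 0.049). These were 1 and 2 of the 4 nectins, and 0 were called in residual against primary cells. Without recurrent 3, and likewise without residual 2, 0 of 4 were called against primary cells and 1 of 4, Nectin3, against residual cells. The call of Nectin3 against primary cells was also lost when quantile-normalized again (adjusted p = 0.0825), and that of Nectin1 when arrays were centred on their medians (0.0508). The medians of the 4 were 0.08, -0.50 and -0.45.

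Of 15 proteases that mature or shed cadherins, 1 was called, in residual against primary cells, where 7.61% of all genes were called lower. Adam17, a sheddase, fell there by 0.61 (limma adjusted p = 0.0341). That call was lost when the arrays were quantile-normalized again (adjusted p = 0.115) and when they were scaled to one median and interquartile range (0.102). The latter scaling called Mmp14, a membrane metalloprotease, higher (0.0475). The medians were -0.07, -0.22 and -0.11, and the first turned to 0.07 and 0.08 under those scalings. Of 9 surface partners 1 was called, Pdgfrb, the PDGF receptor beta, which rose by 2.82 in residual and by 2.29 in recurrent cells against primary cells (limma adjusted p = 5.74e-07 and 8.81e-06). Without recurrent 3, Ptprk, a receptor phosphatase, was also called lower in recurrent than primary cells, by -2.54 against -2.14 with all arrays (limma adjusted p = 0.0254 and 0.0584). Fgfr1, an FGF receptor known to bind N-cadherin, had means of 9.23 ± 0.23 (primary), 9.33 ± 0.17 (residual) and 9.54 ± 0.11 (recurrent) (SD, n = 4, 3 and 4). The medians of the 9 were 0.11, 0.11 and -0.16.

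Transcription factors of the epithelial-mesenchymal transition, which repress Cdh1 and are often found with Cdh2, gave 1 or 2 calls in each comparison. Without recurrent 3 those in recurrent cells missed the threshold at similar log2 changes. Of 9, 2 rose in residual against primary cells, Snai1 by 1.16 and Snai2 by 2.11 (limma adjusted p = 0.0139 and 0.0434). In recurrent against primary cells 2 rose, Snai2 by 2.70 and Tcf4 by 0.84 (limma adjusted p = 0.0369 and 0.0314), where Cdh2 fell by 1.21. In recurrent against residual cells Twist1 rose by 0.73 (adjusted p = 0.0454). Of all genes, 4.81% were called higher in residual against primary, 0.818% in recurrent against primary and 3.58% in recurrent against residual cells. Without recurrent 3, 0 of 9 were called in either comparison of recurrent cells, with adjusted p of 0.0882 for Snai2, 0.0785 for Tcf4 and 0.0775 for Twist1. The log2 changes were then 2.42, 0.76 and 0.76, against 2.70, 0.84 and 0.73 with all arrays. Twist1 also lost its call without residual 2 (0.138), when quantile-normalized again (0.0847) and when scaled to one median and interquartile range (0.119). Snai2 read 4.32 to 5.35 on the primary, 5.78 to 8.16 on the residual and 6.06 to 8.40 on the recurrent arrays. The medians of the 9 were 0.08, 0.27 and 0.41.

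The genes most like Cdh2 over the arrays included other junction genes. By Pearson's r over the 11 arrays, among 19050 named genes, they were F11r at 0.951, Sod3 at 0.943, Ets2 at 0.921, Cblb at 0.910 and Jam2 at 0.908. This likeness is a description over arrays that share groups, and genes are not independent of each other. F11r and Jam2 encode the junctional adhesion molecules A and B, Sod3 the extracellular superoxide dismutase, Ets2 a transcription factor and Cblb a ubiquitin ligase. F11r read 8.85 to 9.19 on the primary, 8.66 to 9.40 on the residual and 5.97 to 7.62 on the recurrent arrays. Jam2 read 6.86 to 7.37, 6.95 to 8.01 and 5.21 to 5.31. Without recurrent 3, the r of these 5 genes was 0.910 to 0.954.

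**Figure D3:**
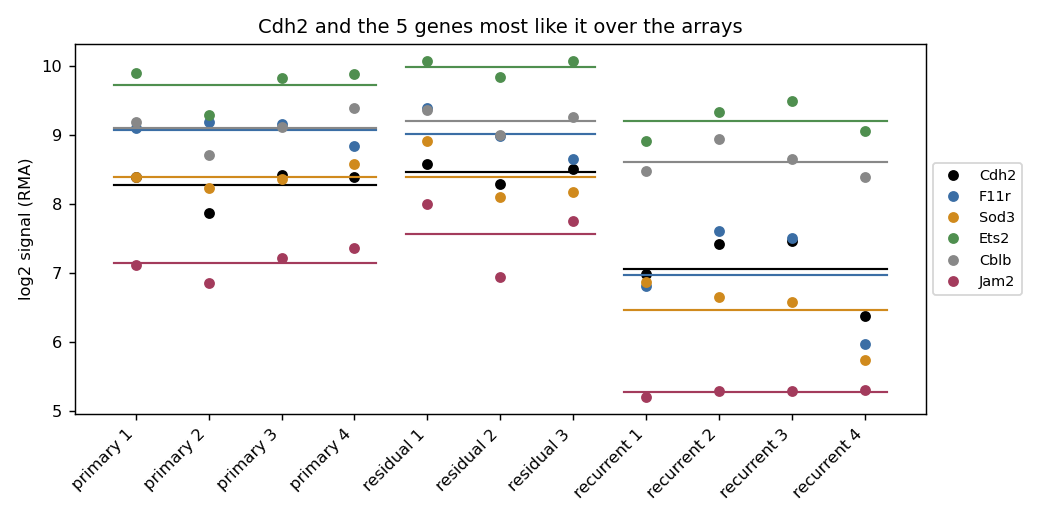
Log2 signal (vertical axis) of Cdh2 and the 5 genes with the highest Pearson's r to it, on each of the 11 arrays (horizontal axis). Points are arrays and lines group means. The recurrent values of Cdh2, F11r, Sod3 and Jam2 lie below all their primary and residual values, for Jam2 at 5.21 to 5.31.

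For Cdh13 the most alike genes were Mdga2 at an r of 0.971, Lin7c at 0.952, Esf1 at 0.947, Sde2 at 0.941 and Podxl at 0.938, and without recurrent 3 these stayed between 0.911 and 0.964. Podxl, the surface sialomucin podocalyxin, read 6.92 and 6.86 on recurrent 1 and 2 and 4.01 and 3.95 on recurrent 3 and 4. For Cdh5 they were Zmym4, Plac8, Actg2, Gngt1 and Plaat5, at 0.962 to 0.981, and for Cdh11 they were Tbx3, B4galt2, Sdf2l1, Cdkn2b and B3gnt7, at 0.872 to 0.902. Without recurrent 3 these ranges became 0.415 to 0.813 and 0.591 to 0.759, so the likeness to Cdh5 and Cdh11 rested on that array.

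Markers of other cell types moved with stage. Fibroblast markers were called higher in 13 of 16 cases in residual and 9 of 16 in recurrent against primary cells, and lower in 2 of 16 in recurrent against residual cells (medians 2.52, 1.46 and -0.14). Their mean was 5.80 to 6.31 on the primary, 7.97 to 9.13 on the residual and 7.49 to 8.33 on the recurrent arrays. Serpinf1, Dcn and Col1a2 were the brightest, and the largest changes were those of Dpt, Mfap5, Lum and Col3a1. Without residual 2 the fibroblast counts were 13, 8 and 1. Mfap5 lost its call in recurrent against primary and Fbln1 in recurrent against residual cells (limma adjusted p = 0.0536 and 0.0595). Without recurrent 3 the counts stayed at 13, 9 and 2, with Col6a2 and Fbln1 losing and Pdgfra and Mfap5 gaining a call. Cdh11, which fibroblasts are known to use, was called in none of these comparisons. Markers of muscle and nerve sheath, cells known to use Cdh2, averaged 4.20 to 4.33, 4.91 to 5.09 and 4.40 to 4.70 on the primary, residual and recurrent arrays. Of these 10, 3 rose and 1 fell in residual and 1 rose in recurrent against primary cells, and 1 fell in recurrent against residual cells (medians 0.35, 0.09 and -0.16). S100b, a calcium-binding protein, fell by 2.25 in the last of these (limma adjusted p = 0.0163), beside the fall of Cdh2, but was not called there without residual 2 (adjusted p = 0.0659). In recurrent against primary cells, where Cdh2 fell, S100b rose by 2.34 (limma adjusted p = 0.0206). The part of these markers in the Cdh2 difference was not tested.

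Macrophage and monocyte markers were lower in 6 of 16 cases in residual and 1 of 16 in recurrent against primary cells, with 0 called in recurrent against residual cells (medians -1.11, -0.29 and 0.53). Their mean was 6.02 to 6.65 on primary, 5.18 to 5.92 on residual and 5.60 to 6.38 on recurrent arrays. In residual against primary cells 8 were called lower when arrays were centred on their medians. When quantile-normalized again, 5 were called lower and 1 higher there. Without residual 2, 2 were called lower in recurrent against primary cells and 1 higher in recurrent against residual cells. Of 10 pericyte and smooth muscle markers only Pdgfrb was called, in the comparisons given above (medians 0.26, 0.16 and -0.06). After quantile normalization again Pdgfrb was also called lower in recurrent than residual cells (limma adjusted p = 0.0227). The same held when arrays were scaled to one median and interquartile range (0.0122), against 0.0591 with the values as deposited. Of 14 lymphocyte and natural killer cell markers 0 were called in limma (medians 0.01, -0.04 and -0.19). Of 9 adipocyte markers 1, Retn, was called higher in residual against primary cells, with all its levels in the background range (medians 0.08, 0.10 and -0.03). Adipoq, the adiponectin that Cdh13 binds, was in the background range on 10 of the 11 arrays.

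Epithelial markers moved in both directions. Of 15 basal and myoepithelial markers 2 rose and 3 fell in residual against primary cells, 1 fell in recurrent against primary cells, and 1 rose and 1 fell in recurrent against residual cells (medians -0.03, -0.14 and -0.14). Krt14 rose by 2.73 in residual against primary cells and fell by 3.28 in recurrent against residual cells (limma adjusted p = 0.000286 and 0.000146). Between recurrent and primary cells it differed by -0.55 (adjusted p = 0.483). Itga6, Lgr6 and Itgb4 of the same list went the other way from Krt14 in residual against primary cells. Their means were 8.59, 8.16 and 7.96 in primary, 5.97, 6.62 and 7.07 in residual and 7.87, 6.47 and 7.81 in recurrent cells. Under 2 of the 3 other scalings 1 basal marker rose in place of 2, as Mylk lost its call. Of 16 luminal and epithelial markers 1 rose and 3 fell, 0 rose and 2 fell, and 2 rose and 2 fell in the same comparisons (medians 0.36, -0.16 and -0.60). Their mean was 6.20 on residual 2 and 5.15 and 5.12 on the other residual arrays. Without residual 2 the counts became 1 and 5, 0 and 3, and 2 and 1, and the medians 0.13, -0.16 and -0.20. Without recurrent 3 the last comparison had 1 rise and 1 fall, as Krt18 and Cldn4 lost their calls. Cd24a, a surface glycoprotein, fell by 3.56 against primary and by 2.50 against residual cells in recurrent cells (limma adjusted p = 0.00203 and 0.0116). The part of these markers in the cadherin levels was not tested.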

How the data were processed

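Each of the 11 samples was measured on 1 Affymetrix array from biotin-labelled cRNA of total RNA, per the labels' protocols. The authors deposited log2 values, 1 probe set per Entrez Gene identifier (24479 rows), made with RMA in R 3.0.2 per the submitters' processing notes; RMA compresses differences between dim signals. No scanner files were used here, so no other background correction could be tried. Of the rows 23281 were named by the platform table, with symbols updated through RefSeq (GRCm38.p6), and 556 by RefSeq alone; 642 had no name and were not tested. Of 2 symbols with several rows the brighter was kept, leaving 23835 genes.

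The 3 groups were compared in one model of the 11 arrays, using limma 3.58.1 in R 4.3.3 (8 residual and 3.46 prior degrees of freedom), two-sided, adjusted by Benjamini-Hochberg. The script was tested on simulated data. Alternatives were other scalings, a filter on dim genes, array weights, an intensity trend, a replicate block, fits on the compared groups alone, a stricter threshold and leaving out each array; list counts without recurrent 3, without residual 2 and under 3 scalings were added after seeing the data. Figures used matplotlib 3.10.9 in Python 3.11.15. The members and the 16 gene lists were chosen with earlier results of these data known. Named genes were the 6 cadherins, up to 4 called members of each list with the largest change (where none was called, up to 2 of smallest p), of cell type lists also the 3 brightest, and the 5 genes of highest Pearson's r (predicted and olfactory or vomeronasal receptor genes aside) to each cadherin whose mean in some group exceeded 4.06, the median background percentile; not all that this rule took are named, and others were named for what they encode. Of the fixed list genes, Lyz2 alone had no row.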

Additional observations from a re-analysis of the deposited data

Results flagged for a closer look

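In groups of 4 arrays, 12 combinations of a cadherin and a group were checked for an array far from the others, of which chance flags about 1 in 20 groups, and 3 stood out. Cdh5 on recurrent 3, at 10.13, lay apart from 4.66 to 5.09 on the other recurrent arrays. Cdh2 on primary 2, at 7.88, lay below 8.40 to 8.42 on the other primary arrays; without it the log2 fold change of recurrent against primary cells was -1.34 (limma adjusted p = 0.0267). Cdh6 on recurrent 4, at 2.94, differed from an identical 2.96 on the other recurrent arrays, all in the background range.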

How the results depend on the processing

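Cdh2 kept its direction in all 3 comparisons under every alternative run. Against primary cells the fall in recurrent cells was -1.21 but no longer called in the fit on the compared groups alone (adjusted p = 0.0522) or with the replicate block (0.0507), and leaving out 1 array gave -1.35 to -0.98 (0.0204 to 0.0762). Cdh13 in residual against primary cells stayed at -1.11 and was called in the fit on the compared groups alone (adjusted p = 0.0286). Other cadherins changed sign without a call, and the cause was not tested. Cdh6 turned to -0.026 (arrays centred on their medians), -0.047 (quantile-normalized again) and -0.11 (scaled to one median and interquartile range) in residual against primary cells, to -0.040, -0.0010, -0.062 and, with array weights, -0.018 in recurrent against primary cells, and to 0.046 (quantile) and 0.048 (scaled) in recurrent against residual cells. Leaving out 1 array gave Cdh6 -0.11 to 0.22, -0.049 to 0.088 and -0.20 to 0.12 in these comparisons. It gave Cdh3 -0.16 to 0.053 in recurrent against primary and -0.024 to 0.27 in recurrent against residual cells, Cdh5 -0.00068 to 1.82 in recurrent against primary, Cdh11 -0.29 to 0.88 in residual against primary, and Cdh13 -0.39 to 0.31 in recurrent against residual cells. Cdh13 in the last comparison was 0.033 with the replicate block and 0.031 with array weights. With dim genes left out Cdh3 and Cdh6 could not be fitted.

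The number of genes called was 2960 for residual against primary cells, 430 for recurrent against primary cells and 1377 for recurrent against residual cells. At an adjusted p under 0.01 they were 1375, 142 and 521. The replicate block gave 277 in the second and 872 in the third, and the compared groups alone gave 609 in the third. Leaving out 1 array gave 203 to 420 in the second, with 207, 225, 211 and 203 without primary 1, 2, 3 and 4. Centring on medians moved the share of higher calls in the first from 38.7% to 27.8%. The replicate numbers pair no samples: same-numbered arrays of different groups deviated from their group means with r of -0.0805 to 0.0172 across genes, and 1 of 11 arrays correlated best with its own number. Under centring, quantile normalization and scaling in turn, 1, 4 and 4 of 42 called list genes lost their call in residual against primary cells, 0, 1 and 0 of 19 in recurrent against primary cells, and 1, 1 and 2 of 15 in recurrent against residual cells, with 0 to 4 newly called and 0 turned in sign. The number of arrays limits the precision.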

Other observations

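Recurrent 3 stood more than 2 log2 units above all other arrays for 24 genes and below them for 1, against 0 to 28 and 0 to 8 on the other 10 arrays (28 on residual 2). Cdh5 ranked 3 by this margin, at 4.40 above the next array, after Flrt2, an adhesion protein of the fibronectin and leucine-rich repeat family, at 4.49 and an unnamed Riken gene at 4.48. Cnn1, the smooth muscle calponin, followed at 3.60, and Cdh11 ranked 25 at 1.97. Cnn1 read 7.50 on recurrent 3 and 2.96, 3.32 and 3.90 on recurrent 1, 2 and 4. Actin genes of smooth muscle read high there as well, Acta2 above its 6.70, 6.62 and 9.96 on recurrent 1, 2 and 4, and Actg2 at 6.02 against 4.08, 4.01 and 4.03. Myh11, the smooth muscle myosin, read 4.01 on all 4 recurrent arrays, which is in the background range on each of them. These genes were picked after their values were seen.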
